A study of Mus musculus with 4 samples.

Results

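The circadian clock genes described here are *Arntl*, *Clock*, *Per1*, *Per2*, *Per3*, *Cry1*, *Cry2*, *Nr1d1*, *Nr1d2* and *Dbp*. They were chosen by name as core members of the clock, and all 10 are among the 24322 gene symbols of the files. To ask what loss of the homeobox gene *Rax* does to Müller glial cells, RNA-seq libraries were made from mTFP-positive cells sorted by FACS from mouse retinas, 1 library per mouse. All 4 mice (129S6 in the labels) carried *Rlbp1-CreERT2*, a tamoxifen-inducible Cre recombinase under a promoter fragment of the Müller glial gene *Rlbp1*, and *R26-CAG-LoxP-mTFP1*, a fluorescent reporter that Cre switches on. Each mouse was given tamoxifen at P4, and its retinas were taken at P14. The 2 control mice, numbers 7984 and 3911, had the genotype *Rax* flox/WT, so that Cre deletes 1 of their *Rax* alleles too, and the 2 *Rax* iCKO mice, numbers 7983 and 3914, had the genotype *Rax* flox/flox. Besides Müller glial cells, this Cre line recombines in retinal pigment epithelium. The mouse numbers fall into 2 runs, 7983 with 7984 and 3911 with 3914, each holding 1 mouse of each genotype. The labels do not say what the mice of a run share (litter, day or time of day), and the hour of harvest is not given in the sources used here.

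The circadian clock is a feedback loop of transcription that runs in most cells with a period of about a day. CLOCK and BMAL1, the product of *Arntl*, bind E-boxes as a dimer and switch on the *Per*, *Cry*, *Nr1d* and *Dbp* genes. PER and CRY proteins then block the dimer, while the nuclear receptors REV-ERBα and REV-ERBβ, from *Nr1d1* and *Nr1d2*, repress *Arntl*. In most tissues *Arntl* RNA therefore peaks when *Nr1d1*, *Dbp* and *Per* RNA are low. DBP acts on D-boxes, which *Per* genes carry, and *Per1* also answers to light, cAMP and glucocorticoids. The retina holds its own clock, and clock genes are expressed in several of its cell types, glia included.

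The DNA that this loop reads is shown first, for the genes with a match to one of its known motifs near their start. Promoter windows of 300 bases, from 250 before to 50 after a RefSeq transcription start in GRCm38.p6, were at hand for 9 of the 10 genes (13 windows, the exception being *Per2*) and for 32851 starts in all. Both strands were searched for the E-box CACGTG, the variant E-box CACGTT, which reads AACGTG on the other strand, the D-box TTANGTAA, the nuclear receptor site TAGGTCA and the core of the cAMP response element TGACGT. The motifs do not overlap one another in the stretches below. Capitals mark the matches, each stretch is written 5′ to 3′ on the strand of its gene, and distances run from the start to the first base of the match.
Per1, first window, chr11:69098759-69098812, plus strand: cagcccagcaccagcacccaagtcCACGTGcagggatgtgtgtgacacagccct
Per1, second window, chr11:69099996-69100049, plus strand: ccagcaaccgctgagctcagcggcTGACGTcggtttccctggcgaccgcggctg
Per3, chr4:151044792-151044894, minus strand: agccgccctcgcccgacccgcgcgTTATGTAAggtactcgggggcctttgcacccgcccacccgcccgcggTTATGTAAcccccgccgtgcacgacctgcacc
Cry1, chr10:85185085-85185157, minus strand: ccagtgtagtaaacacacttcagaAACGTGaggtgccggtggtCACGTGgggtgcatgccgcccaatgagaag
Cry2, chr2:92434206-92434259, minus strand: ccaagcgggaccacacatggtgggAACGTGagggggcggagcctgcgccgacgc
Nr1d1, chr11:98775378-98775429, minus strand: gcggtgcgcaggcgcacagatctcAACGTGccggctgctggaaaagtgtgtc
Arntl, second window, chr7:113207534-113207554, plus strand: cagaaagTAGGTCAgggacgg
The E-box lies 166 bases upstream of the *Per1* start and 60 bases upstream of the *Cry1* start. The variant E-box lies 79 bases upstream in *Cry1*, 166 in *Cry2* and 28 in *Nr1d1*. *Per3* holds D-boxes 205 and 158 bases upstream, and the second *Per1* window a cAMP response element core 132 bases upstream. In *Arntl* the nuclear receptor site lies 30 bases downstream of the second start. Of the 13 windows, 2 held the E-box, 3 the variant E-box and 1 each of the other motifs, against 7.15%, 4.68%, 2.32% (D-box), 2.61% (nuclear receptor site) and 7.51% (cAMP core) of all 32851 windows. A match is a run of letters and not a shown binding site.

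The estimated depth was 9240000 to 12660000 mapped reads per library, deepest in control mouse 7984, and 7870 to 8720 symbols were listed at 0 in a library. FPKM, the unit of the files, scales the reads on a gene by its exon length and by the mapped reads of the library. *Rax* read 189 and 181 FPKM in the controls, and the *Rax* iCKO mice had 111 and 98.4, below both controls (log2 fold change -0.82, limma adjusted p = 0.9999). The 10 Müller glial markers, such as *Glul* and *Rlbp1*, summed to 9509 to 13944 FPKM, so that the labelled cell type was present in all libraries. Rod markers summed to 792 to 1365 FPKM, bipolar cell markers to 769 to 1361, cone markers to 95.6 to 115, microglia markers to 7.82 to 52.4, amacrine markers to 3.86 to 9.64, ganglion cell markers to 2.72 to 7.19 (*Pou4f1* at 0 in all), pigment epithelium markers to 1.84 to 2.93 (*Mlana* at 0 in all) and endothelium markers to 0.550 to 2.07. Sex-linked RNA differed between the mice. *Xist*, the RNA of the inactive X chromosome, had 24.5 and 21.2 FPKM in the controls, whereas *Rax* iCKO mice 7983 and 3914 had 0.0119 and 0.00605 (log2 fold change -4.56, limma adjusted p = 0.0167), so that its split followed the genotype. The 4 Y-linked genes summed to 66.8 FPKM in mouse 7983 and were listed at 0 in the other libraries, mouse 3914 included. The part of these sex-linked differences in the clock values was not tested, and that of the *Xist* split cannot be told apart from genotype in these mice. In such sorted samples, fewer cells of a type and less RNA per cell cannot be told apart.

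The clock RNAs spanned a wide range of levels, with the cryptochrome *Cry2* at the top and *Per1* at the bottom. Mean FPKM over the 4 mice, a level per exon length, was 74.0 ± 11.3 (SD, n = 4) for *Cry2*, 66.9 ± 7.88 for *Arntl*, 64.3 ± 6.24 for *Dbp* and 58.5 ± 6.47 for *Nr1d1*, neighbours in this order whose ranges overlapped. It was 38.4 ± 2.47 for *Nr1d2*, 27.3 ± 3.62 for *Cry1* and 19.8 ± 6.30 for *Per3*, of which *Cry1* and *Per3* overlapped in range. *Clock* at 7.23 ± 0.574, *Per2* at 4.75 ± 1.14 and *Per1* at 1.99 ± 0.786 each lay apart from its neighbours in the order. *Per1* rests on about 50 to 160 reads per library, and each of the other 9 genes on about 190 or more, by the depth estimate and the longest annotated transcript. *Nr1d1* overlaps *Thra*, *Dbp* overlaps *Sphk2*, and *Cry2*, *Per2*, *Arntl* and *Clock* overlap noncoding genes or a pseudogene in RefSeq, and the strand setting of the counting is not given in the sources used here, so those reads may be shared.

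**Figure D1:**
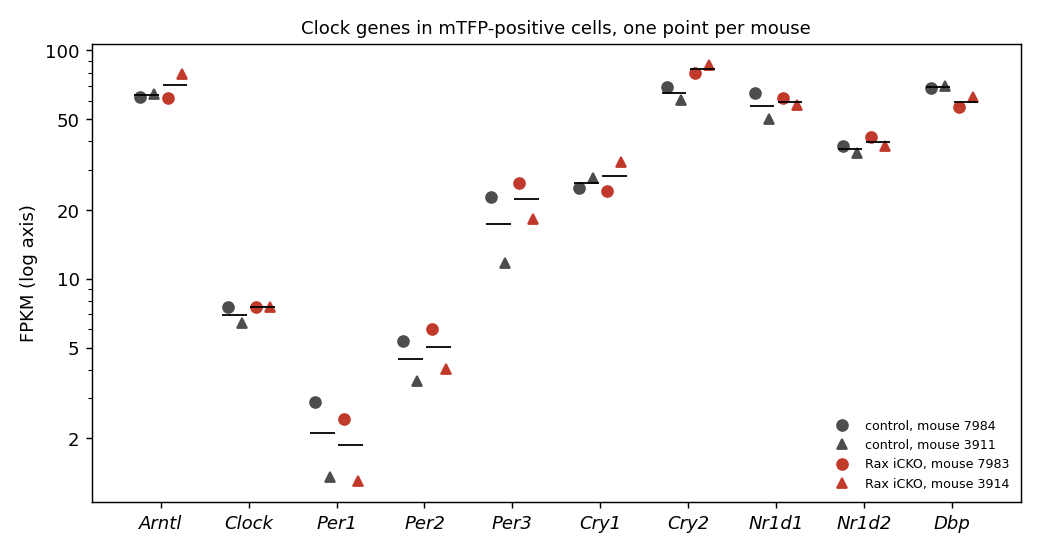
FPKM (log axis) of the 10 clock genes in each mouse, with circles for mice 7983 and 7984, triangles for mice 3911 and 3914, grey for control, red for Rax iCKO, and black lines for the mean of 2 mice. Per1, Per2 and Per3 separate by symbol shape and not by color, and the other genes span at most 1.43-fold from the lowest mouse to the highest.

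None of the 10 clock genes passed the test between *Rax* iCKO and control, and the ratio of their mean FPKM ran from 0.856 for *Dbp* to 1.29 for *Per3*. The test was limma on log2(FPKM + 1), adjusted by Benjamini-Hochberg over the 12363 genes whose mean FPKM was 1 or more, as it was for all 10 clock genes. All 95% intervals given are of limma and are not adjusted for the number of genes. At an adjusted p under 0.05 limma called 0 of the 10, against 0.0243% of all genes tested, and at an unadjusted p under 0.05 it also found 0 of the 10, against 2.86%. The adjusted p was 0.9999 for each of the 10. Their median log2 fold change was 0.11, beside 0.00 over all genes tested (-0.0044 before rounding), and 8 were positive and 2 negative. Both *Rax* iCKO mice lay above both controls for 3 genes (15.4% of all genes tested) and below both for 1 gene (14.1%), in all 4 of 10 without overlap beside 29.5% of all genes tested. With 2 mice against 2, the smallest two-sided p of an exact permutation test is 0.333. A p that misses the threshold does not show that the levels are alike, and the intervals below give the differences that the data allow.

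The activators of the loop had small fold changes with intervals on both sides of 0. *Arntl* lies at chr7:113207465-113314126 on the plus strand of GRCm38. Control mice 7984 and 3911 had 62.5 and 64.5 FPKM of it, and *Rax* iCKO mice 7983 and 3914, named in this order throughout, had 62.0 and 78.6. Mouse 3914 was the highest, and the groups overlapped. Its log2 fold change was 0.13, with a 95% interval from -0.40 to 0.67. *Clock*, whose product pairs with BMAL1, lies at chr5:76209868-76304792 on the minus strand. The controls had 7.49 and 6.37 FPKM and the *Rax* iCKO mice 7.55 and 7.52, so that 3 of the 4 mice were nearly equal and mouse 3911 was the lowest. The log2 fold change was 0.11 (95% interval -0.47 to 0.69). *Npas2*, which can stand in for *Clock*, had 0.887 and 0.703 FPKM in the controls, against 1.01 and 1.08 in the *Rax* iCKO mice, and was not tested because its mean was under 1.

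Among the repressors in this set of clock genes, *Cry2* had the widest gap between genotypes without overlap. *Cry2*, a cryptochrome that binds the CLOCK and BMAL1 dimer, lies at chr2:92403646-92434043 on the minus strand. The controls had 69.4 and 60.6 FPKM, a mean of 65.0 ± 6.25 (SD, n = 2), and the *Rax* iCKO mice had 79.6 and 86.4, a mean of 83.0 ± 4.80, which is a ratio of 1.28. Both *Rax* iCKO mice lay above both controls, with a log2 fold change of 0.35 (95% interval -0.15 to 0.85, limma adjusted p = 0.9999). Within runs, on the log2(FPKM + 1) scale, mouse 7983 exceeded mouse 7984 by 0.19 and mouse 3914 exceeded mouse 3911 by 0.50. *Cry1*, its paralog at chr10:85131700-85185064 on the minus strand, had 25.1 and 27.5 FPKM in the controls, and the *Rax* iCKO values of 24.3 and 32.3 lay on either side of them (log2 fold change 0.09, 95% interval -0.47 to 0.65).

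The *Per* genes, which encode the partners of the cryptochromes, varied more within a genotype than between genotypes. *Per1*, at chr11:69095217-69109960 on the plus strand, had 2.88 and 1.36 FPKM in the controls, and 2.43 and 1.30 in the flox/flox mice. *Per2*, at chr1:91415982-91459324 on the minus strand, had 5.33 and 3.57 FPKM in the controls, and 6.05 and 4.03 in the flox/flox mice. *Per3*, at chr4:151003652-151044665 on the minus strand, had 22.8 and 11.8 FPKM in the controls, and 26.3 and 18.2 in the flox/flox mice. In each of them the genotypes overlapped, because 1 mouse of either genotype was high and 1 was low. Within runs, *Rax* iCKO less control was compared on the log2(FPKM + 1) scale, with run 7983 and 7984 first. It was -0.18 and -0.033 for *Per1*, 0.15 and 0.14 for *Per2*, and 0.20 and 0.59 for *Per3*. The log2 fold changes between genotypes were -0.11 (95% interval -1.03 to 0.82) for *Per1*, 0.15 (-0.62 to 0.91) for *Per2* and 0.39 (-0.48 to 1.27) for *Per3*. These intervals are the widest of the 10 genes.

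The remaining E-box targets, *Nr1d1*, *Nr1d2* and *Dbp*, had point estimates of both signs. *Nr1d1*, at chr11:98767932-98775333 on the minus strand, had 64.8 and 49.9 FPKM in the controls, and both *Rax* iCKO values, 61.8 and 57.4, lay between them (log2 fold change 0.07, 95% interval -0.48 to 0.61). *Nr1d2*, at chr14:18204054-18239127 on the minus strand, had 38.1 and 35.6 FPKM in the controls, and 41.6 and 38.2 in the flox/flox mice. The groups just missed overlapping, and the log2 fold change was 0.11 (95% interval -0.37 to 0.59). *Dbp*, which encodes a D-box activator, lies at chr7:45705088-45710203 on the plus strand. It was the 1 clock gene with both *Rax* iCKO mice below both controls, at 56.3 and 62.3 FPKM against 68.7 and 69.8. The means were 59.3 ± 4.18 in *Rax* iCKO and 69.2 ± 0.744 in control (SD, n = 2), a ratio of 0.856, with a log2 fold change of -0.22 (95% interval -0.71 to 0.26, limma adjusted p = 0.9999).

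**Figure D2:**
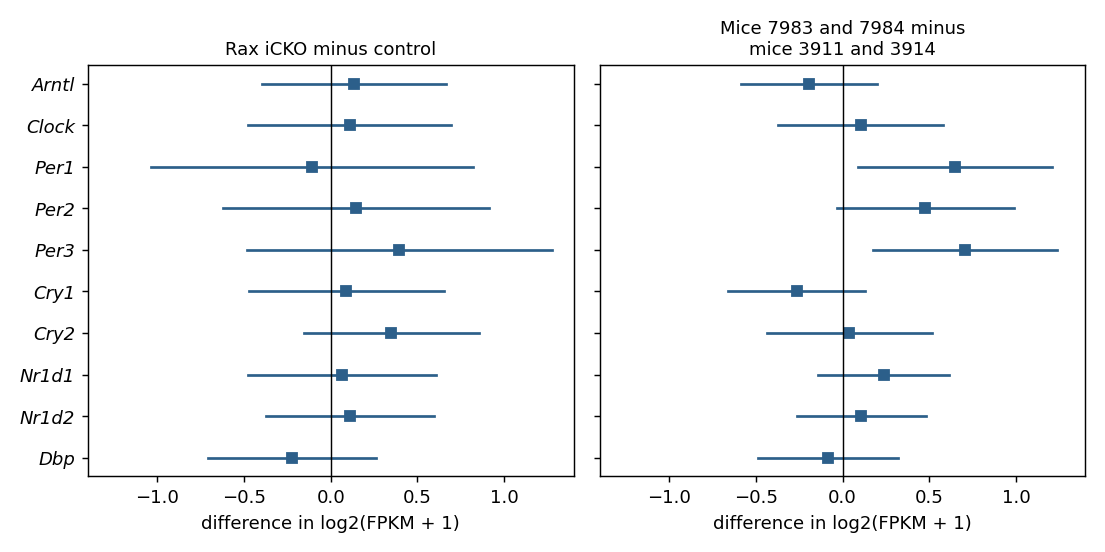
Difference in log2(FPKM + 1) of each clock gene between genotypes (left) and between runs of mouse numbers (right), squares for the estimate and lines for the 95% interval from limma, not adjusted for the number of genes. With 1 term in each fit, on the left all 10 intervals include 0, and on the right those of Per1 and Per3 lie above 0.

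When the libraries were compared by run of mouse numbers, all 3 *Per* genes lay higher in mice 7983 and 7984 than in mice 3911 and 3914, whatever the genotype, by 1.496- to 1.996-fold in the mean, while the ratios of the other 7 clock genes ran from 0.825 to 1.18. None of the 10 passed the test over all genes. limma, with the run in place of the genotype, called 0 of the 10 at an adjusted p under 0.05, against 2.8% of all genes tested. At an unadjusted p under 0.05 it found 2 of the 10, *Per1* and *Per3*, against 23.5% of all genes tested, so that the share of the clock genes was near the background. Both mice of run 7983 and 7984 lay above both others for 4 genes (26.8% of all genes tested), *Per1*, *Per2*, *Per3* and *Nr1d1*, and below both for 2 (29.1%), *Cry1* and *Arntl*, in all 6 of 10 without overlap beside 55.9% of all genes tested. Over the whole table, 346 of the 12363 genes were called between the runs, 260 higher and 86 lower in mice 7983 and 7984, or 204 and 131 when the libraries were set to equal medians, which moved the median of all genes from -0.01 to -0.09.

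*Per1* averaged 2.65 ± 0.317 FPKM in mice 7983 and 7984 and 1.33 ± 0.0375 in mice 3911 and 3914 (SD, n = 2), a ratio of 1.996. Its log2 difference was 0.65 (95% interval 0.09 to 1.21), with a limma adjusted p of 0.166. *Per3* averaged 24.6 ± 2.47 against 15.0 ± 4.58, a ratio of 1.64, with a log2 difference of 0.70 (95% interval 0.17 to 1.24, limma adjusted p = 0.130). *Per2* averaged 5.69 ± 0.505 against 3.80 ± 0.327, a ratio of 1.496, with a log2 difference of 0.48 (95% interval -0.03 to 0.99, limma adjusted p = 0.236). The gap was seen in either genotype. On the log2(FPKM + 1) scale *Rax* iCKO mouse 7983 exceeded mouse 3914 by 0.57 for *Per1*, 0.49 for *Per2* and 0.51 for *Per3*, and control mouse 7984 exceeded mouse 3911 by 0.72, 0.47 and 0.90 in the same order. With genotype and run both in the limma fit, *Per3* alone of the 10 genes passed (adjusted p = 0.0146), where 18.8% of all genes tested did (8.88% higher in run 7983 and 7984 and 9.9% lower), and *Per1* and *Per2* had adjusted p-values of 0.0973 and 0.140.

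The other 7 clock genes had smaller differences between runs, with intervals that include 0. *Nr1d1*, an E-box target like the *Per* genes, was 0.24 higher in mice 7983 and 7984 on the log2 scale (95% interval -0.14 to 0.61), and *Nr1d2* 0.11 (-0.26 to 0.48). *Dbp*, which peaks near *Per1* in many tissues, gave -0.08 (95% interval -0.49 to 0.32). *Arntl* gave -0.19 (-0.58 to 0.20), *Cry1* -0.26 (-0.66 to 0.13), *Clock* 0.10 (-0.37 to 0.58) and *Cry2* 0.04 (-0.44 to 0.51). Of the 10 genes, 9 had the same sign of the run difference in both genotypes, where 73.3% of all genes tested did. For the genotype difference 7 of 10 had the same sign in both runs, where 62.3% of all genes tested did.

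As a measure of phase, *Arntl* was set against its antiphase partners within each library. The ratio of *Arntl* to *Dbp* FPKM was 1.10 in mouse 7983, 0.909 in mouse 7984, 0.925 in mouse 3911 and 1.26 in mouse 3914, so that it was higher in both *Rax* iCKO mice than in both controls and did not separate the runs. The ratio of *Arntl* to *Nr1d1* was 1.003, 0.964, 1.29 and 1.37 in the same order, lower in both mice of run 7983 and 7984. The ratio of *Dbp* to *Per1*, which are no antiphase partners, was 23.2 and 23.9 in that run and 51.4 and 47.8 in mice 3911 and 3914. It mostly restates the *Per1* values, as *Dbp* ranged over only 1.24-fold. For the arms, the mean log2(FPKM + 1) of *Arntl*, *Clock* and *Npas2* less that of *Dbp*, *Nr1d1*, *Nr1d2*, *Per1*, *Per2* and *Per3* was -1.07 and -1.11 in mice 7983 and 7984 and -0.79 and -0.67 in mice 3911 and 3914. The runs did not overlap in this difference. The first arm, at 3.36 and 3.33 in mice 7983 and 7984 and 3.23 and 3.49 in mice 3911 and 3914, did not separate the runs, and the second (4.43 and 4.44 against 4.02 and 4.16) holds the *Per* genes, so that most of the gap restates the *Per* values above. No test was made of these ratios. *Arntl* and *Dbp* were both abundant in all 4 libraries, where *Arntl* ranged over 1.27-fold and *Dbp* over 1.24-fold.

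Across all 10 genes the most alike libraries were those of mice 7983 and 7984, with a root mean square difference of 0.15 in log2(FPKM + 1), then those of mice 3911 and 3914 with 0.30. Pairs from different runs had 0.34 to 0.49. Over all genes tested the same pairs had 0.45 and 0.49 within runs and 0.57 to 0.64 between runs, so the order by run was shared with the transcriptome as a whole. For the *Per* genes alone, a group taken after the values were seen, the differences were 0.18 and 0.35 within runs and 0.51 to 0.79 between them. For the other 7 clock genes, which are what that choice left, they were 0.14 and 0.27 within runs and 0.19 to 0.26 between them. This measure did not separate the runs in these 7, a set without the largest run gaps by that choice. *Arntl*, *Cry1* and *Nr1d1* among them did not overlap between runs.

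**Figure D3:**
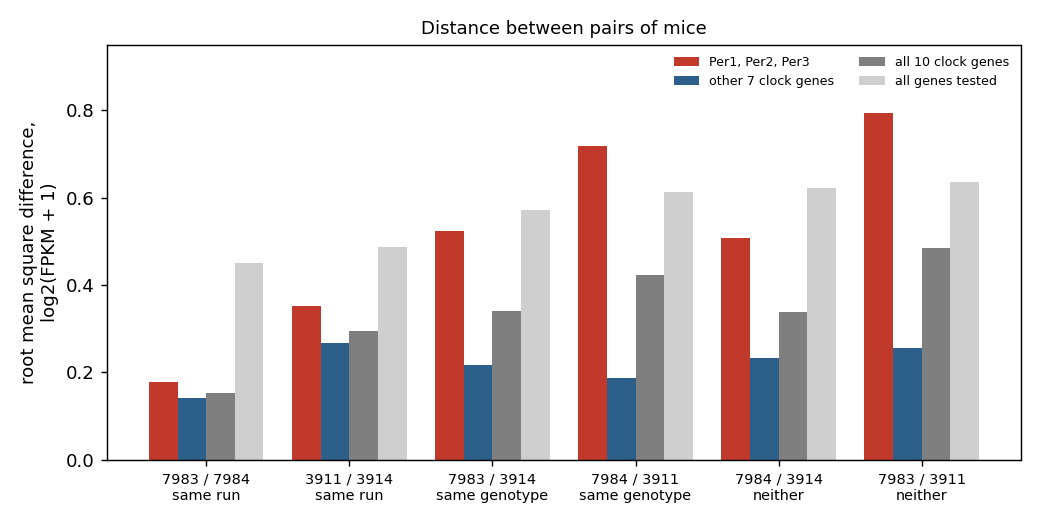
Root mean square difference in log2(FPKM + 1) for each pair of mice, labelled by what the pair shares, over Per1, Per2 and Per3 (red), the other 7 clock genes (blue), all 10 (dark grey) and all genes tested (light grey). The red bars are 0.18 and 0.35 for pairs of the same run and at least 0.51 for the others, while the blue bars stay between 0.14 and 0.27. The Per genes were grouped after the values were seen, and the blue bars are of the genes left.

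The variation of each gene over the 4 mice, whatever its source, was widest in *Per3* and *Per1*. The SD of log2(FPKM + 1) was 0.48 for *Per3* and 0.38 for *Per1*, wider than 88.2% and 75.7% of all genes tested. It was 0.29 for *Per2*, wider than 57.1%. It was 0.09 for *Nr1d2* and 0.10 for *Clock*, wider than 4.97% and 7.14% of all genes tested, and between 0.14 and 0.22 for the remaining 5 genes. Highest and lowest mouse differed 2.24-fold in *Per3*, 2.21-fold in *Per1*, 1.69-fold in *Per2* and 1.17- to 1.43-fold in the other 7.

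Of 20 further genes of the clock pathway, 17 were tested, and limma called 0 at an adjusted p under 0.05 in either comparison. At an unadjusted p under 0.05, 1 of the 17 was lower in *Rax* iCKO (1.6% of all genes tested) and 3 were higher in run 7983 and 7984 (11.7%). The gene lower in *Rax* iCKO was *Bhlhe40*, which encodes an E-box repressor, at 24.1 and 22.7 FPKM against 34.9 and 31.7 in the controls (log2 fold change -0.49, limma adjusted p = 0.9999). The groups did not overlap. Its paralog *Bhlhe41* was between 3.91 and 6.17 FPKM, with a log2 fold change of 0.07.

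Of the D-box factors, both activators besides *Dbp* had higher values in run 7983 and 7984 and the repressor had lower ones. *Hlf*, which encodes an activator like DBP, was at 35.6 and 30.8 FPKM in mice 7983 and 7984 and at 17.0 and 27.9 in mice 3911 and 3914 (log2 difference 0.58, limma adjusted p = 0.197). *Tef*, the third of these activators, was at 72.4 and 83.9 FPKM against 55.4 and 62.2 (log2 difference 0.40, adjusted p = 0.201 in limma). *Nfil3*, whose product represses at D-boxes, was at 15.5 and 13.6 FPKM against 20.8 and 18.3 (log2 difference -0.40, adjusted p = 0.232 in limma). For *Tef*, *Hlf* and *Nfil3* the runs did not overlap, as for 55.9% of all genes tested, and of the 17 genes 7 lay higher (26.8%) and 2 lower (29.1%) in run 7983 and 7984 without overlap. *Ciart*, an E-box repressor, was at 28.1 and 23.7 FPKM in mice 7983 and 7984 and at 37.0 and 28.3 in mice 3911 and 3914 (log2 difference -0.31, adjusted p = 0.359 in limma), a direction opposite to that of the *Per* genes, and its runs just missed overlapping. With genotype and run both in the fit, 2 of the 17 were called, *Hlf* (limma adjusted p = 0.0292) and *Fbxw11* (0.0445), both higher in run 7983 and 7984 as were 8.88% of all genes tested, while *Tef* (0.0700) and *Nfil3* (0.115) were not.

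**Figure D4:**
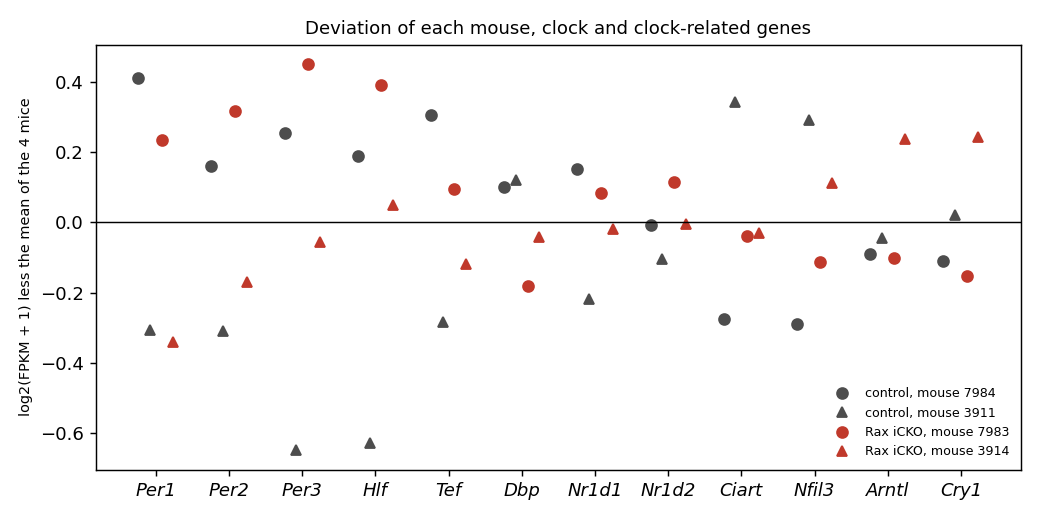
log2(FPKM + 1) of each mouse less the mean of the 4 mice, for 12 clock and clock-related genes, with circles for mice 7983 and 7984, triangles for mice 3911 and 3914, grey for control and red for Rax iCKO. In Per1, Per2, Per3, Hlf, Tef and Nr1d1 the circles lie above the triangles, in Nfil3, Ciart, Arntl and Cry1 below them, and in Dbp and Nr1d2 the shapes are mixed.

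*Rora* and *Rorb*, which encode the nuclear receptors that activate *Arntl*, were at 15.3 to 23.9 and 34.2 to 49.3 FPKM, with log2 fold changes of 0.36 and 0.22 in *Rax* iCKO (adjusted p = 0.9999 in limma). Genes of kinases and ubiquitin ligase subunits that act on PER proteins, *Csnk1d*, *Csnk1e*, *Csnk1a1*, *Gsk3b*, *Btrc* and *Fbxw11*, had log2 fold changes from -0.11 to 0.36 between genotypes, and none was called with 1 term in the fit. Of 10 genes that cycle in many tissues, 9 were tested and 0 called by limma in either comparison, with 1 lower in run 7983 and 7984 at an unadjusted p under 0.05 (*Leo1*, beside 11.7% of all genes tested). *Wee1*, a cell cycle kinase gene, was at 4.20 to 6.32 FPKM, and *Usp2*, a deubiquitinase gene, at 25.3 to 39.6 FPKM with mouse 3914 the highest. Their log2 fold changes between genotypes were -0.26 and 0.39 (adjusted p = 0.9999 in limma).

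Immediate early and glucocorticoid-responsive genes, which share inducers with *Per1*, and the cell type markers were set beside these values. Of all genes tested, 1.26% were higher and 1.6% lower in *Rax* iCKO at an unadjusted p under 0.05, and 11.7% were higher and 11.7% lower in run 7983 and 7984. All 9 tested immediate early genes were lower in *Rax* iCKO, with a median log2 fold change of -0.46, 6 of them without overlap (14.1% of all genes tested) and 0 called by limma (2 at an unadjusted p under 0.05). Of the same 9, 8 had a positive log2 difference in run 7983 and 7984, with 3 at an unadjusted p under 0.05 (*Fosb*, *Jun* and *Egr1*) and 0 called by limma. Their sums over the 10 listed genes were 3182 and 4459 FPKM in mice 7983 and 7984 and 3608 and 2776 in mice 3911 and 3914. Of the 5 tested glucocorticoid-responsive genes, 0 were called by limma, and 1 was lower in run 7983 and 7984 at an unadjusted p under 0.05 (*Mt2*). *Tsc22d3* was at 55.2 to 69.7 FPKM and *Fkbp5* at 3.94 and 4.83 in mice 7984 and 7983 and at 5.70 and 8.47 in mice 3911 and 3914. All 10 Müller glial markers had a positive log2 difference in run 7983 and 7984, from 0.0024 for *Rlbp1* upward, 1 of them called by limma (*Kcnj10*, log2 difference 0.97, adjusted p = 0.0445) beside 2.8% of all genes tested, and 5 of them without overlap (26.8%). All 6 microglia markers had a positive log2 difference there, though *Aif1* had nearly equal mean FPKM (1.194 and 1.198), with 0 called and 3 at an unadjusted p under 0.05. Between genotypes, limma called 0 markers of these lists. All 8 rod markers were lower in *Rax* iCKO, with a median log2 fold change of -0.63, 7 of them without overlap (14.1% of all genes tested) and 3 at an unadjusted p under 0.05. Of the 10 Müller glial markers 9 had a negative log2 fold change, with a median of -0.33, 4 of them without overlap and 0 at an unadjusted p under 0.05. All 4 bipolar cell markers were higher, with a median of 0.38, 3 of them without overlap (15.4%) and 1 at an unadjusted p under 0.05 (*Trpm1*). The part of these genes and cells in the clock values was not tested.

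Likeness of pattern was measured as the Euclidean distance of log2(FPKM + 1), less each gene's own mean, over the 4 libraries. Nearest to *Dbp* among the tested genes outside the clock were *Slc16a14* (distance 0.017), *Fbxo7* (0.022) and *A930005H10Rik* (0.023), and nearest to *Arntl* were *Adck3* (0.019), *Tars2* (0.020) and *Pias1* (0.022), against medians of 0.51 over 12362 genes for each. A likeness over 4 libraries is a description only. Of the clock genes, *Cry1* was nearest to *Arntl* (distance 0.085, rank 65 of 12362), with mouse 3914 the highest in both, and *Per3* was the farthest from *Dbp* (1.01, rank 11426) and from *Arntl* (0.94, rank 10893).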

How the data were processed

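RNA-seq was done on mTFP-positive cells of 4 mice. TopHat and Bowtie2 mapped the reads to mm10, and the authors deposited FPKM, 1 value for each gene symbol in each library. The submitters' processing notes name TopHat2 2.1.1, Bowtie2 2.2.8, SAMtools 0.1.18 and Cuffdiff 2.2.1, whereas the methods name Cufflinks and other versions. FPKM were used as deposited. They scale each library to its own mapped fragments, so abundant genes shift the rest. Depth was estimated from whole-read steps in low FPKM of single-transcript GENCODE M21 genes, with 200 bases taken off their length.

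limma 3.58.1 (R 4.3.3, variance trend) was fitted to log2(FPKM + 1), a scale that understates changes of low genes, once by genotype and once by run of mouse numbers, for genes averaging 1 FPKM or more. Steps were tested on simulated data. Alternatives were both terms in 1 fit, leaving out each mouse, equal medians, quantile normalization, no trend, and, for low values, pseudocount 0.1, a minimum of 5 FPKM or none. All clock genes, 9 related genes, *Wee1*, *Usp2*, *Tsc22d3*, *Fkbp5*, the nearest genes in pattern and *Rax* are named by rule, and others were named after their values were seen. The members and lists were chosen with earlier results of these data known. Coordinates are GENCODE M21 (GRCm38).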

Additional observations from a re-analysis of the deposited data

How the results depend on the processing

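Between genotypes, limma called 0 of the clock genes under each of the 11 alternatives, and of the 10 genes *Per1* and *Per2* were not tested at the minimum of 5 FPKM. Between runs the count was 0 under each alternative except with genotype as a term beside the run (the run as replicate block), where it was 1, *Per3*. That block left the genotype count at 0, with limma adjusted p-values of 0.258 for *Cry2* and 0.282 for *Per3*, both under 0.05 before adjustment. Of 216 values of the 20 log2 differences under the alternatives, 200 kept direction and call and 15 changed sign, none of them a called value. Run differences changed sign for *Cry2* with equal medians (-0.041) and, with quantile normalization, for *Clock* (-0.022) and *Dbp* (0.064). The cause was not tested. Without 1 mouse at a time, with the lone mouse of a group assumed to vary like the others, genotype differences ran from -0.46 to 0.25 for *Per1*, -0.10 to 0.39 for *Per2*, -0.056 to 0.85 for *Per3*, -0.11 to 0.29 for *Cry1*, -0.034 to 0.30 for *Arntl* and -0.12 to 0.25 for *Nr1d1*, all of which changed sign, and from 0.25 to 0.45 for *Cry2*, 0.0074 (without control mouse 3911) to 0.21 (without control mouse 7984) for *Clock*, -0.29 to -0.15 for *Dbp* and 0.051 to 0.17 for *Nr1d2*. Run differences ran from -0.21 to 0.29 for *Cry2*, -0.00064 to 0.21 for *Clock* and -0.22 to 0.059 for *Dbp*, which changed sign, and from -0.33 to -0.052 for *Arntl* (-0.040 with quantile normalization), -0.38 to -0.15 for *Cry1*, 0.14 to 0.34 for *Nr1d1* and 0.048 to 0.17 for *Nr1d2*. With all mice kept, that of *Nr1d1* ran from 0.16 (equal medians) to 0.36 (quantile normalization) and that of *Nr1d2* from 0.030 to 0.18 under the same settings. The run difference of *Per3* was 0.41 without control mouse 3911 and 1.001 without *Rax* iCKO mouse 3914. Those of *Per1* (0.56 to 0.74) and *Per2* (0.40 to 0.55) moved less without 1 mouse. Under the alternatives that kept all mice, the run difference of *Per1* ran from 0.49 (quantile normalization) to 0.94 (pseudocount 0.1). That of *Per2* ran from 0.32 to 0.57 under the same 2 settings, and that of *Per3* from 0.63 (equal medians) to 0.74 (pseudocount 0.1). Over all genes tested, the 1 higher and 2 lower calls between genotypes became 24 and 47 with the block, 1 and 3 with pseudocount 0.1, 2 and 2 with quantile normalization, 3 and 3 with equal medians, 0 at either other minimum FPKM, and 7 to 14 higher and 5 to 12 lower without 1 mouse. The 260 higher and 86 lower calls between runs became 1098 and 1224 with genotype as a term, 14 and 3 with no filter, 186 and 26 without the variance trend, and 22 to 52 higher and 8 to 12 lower without 1 mouse. Counting error weighs most on *Per1*, which rests on the fewest reads, about 50 to 160 a library.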

Other observations

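Of 7 genes of retinal light sensing and melatonin signalling, 1 passed the filter on mean FPKM. This was *Drd4*, which encodes a dopamine receptor of photoreceptors, with 19.5 and 16.8 FPKM in the controls, 15.1 and 17.9 in the flox/flox mice, and overlapping groups. *Opn4*, the melanopsin gene of light-sensitive ganglion cells, and *Mtnr1b*, a melatonin receptor gene, were listed at 0 in all 4 libraries. *Aanat*, which encodes the enzyme that times melatonin synthesis, was at 0.273 to 0.643 FPKM, and *Adcy1* at 1.05 and 1.11 FPKM in mice 7984 and 7983 and at 0.625 and 0.525 in mice 3911 and 3914. *Arntl2*, the paralog of *Arntl*, was at 0 to 0.137 FPKM, far under *Arntl* in every library.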
